A study of Mus musculus with 22 samples.

Results

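Matrix metalloproteinases and their Timp inhibitors were followed as 10 named genes, Mmp2, Mmp3, Mmp9, Mmp12, Mmp13, Mmp14, Mmp19, Timp1, Timp2 and Timp3, out of 52636 genes counted in 22 mouse RNA-seq libraries. The members are a list of symbols, with no threshold on a measured value. The renal capsule is the thin fibrous sheath around the kidney. The libraries fall into 6 groups by title, namely aged RCAM and young RCAM (4 libraries each), aged and young whole renal capsule (3 each), and macrophages of the renal capsule and of the kidney (4 each). RCAM is not expanded in the labels, which give these libraries as whole tissue, whereas the series text speaks of capsules sorted for macrophages by flow cytometry. All groups were untreated. No genotype, strain, sex or age in weeks is stated, no age at all is stated for the capsule and kidney macrophages, and nothing says whether a library came from 1 animal or a pool. Since separate animals are not stated, the p-values measure the spread between these libraries, which may be technical.

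Matrix metalloproteinases are zinc-dependent enzymes that are made as inactive precursors and cut extracellular matrix, cytokines and other proteases. Mmp2 and Mmp9 are the gelatinases, Mmp3 is a stromelysin, Mmp12 is the macrophage elastase, Mmp13 is a collagenase, and Mmp14 is a membrane-bound protease that activates the Mmp2 precursor. Timp proteins bind the active site of these enzymes, Timp2 also helps Mmp14 to activate the Mmp2 precursor, and Timp3 is held in the matrix. Fibroblasts are a known source of Mmp2 and Mmp14, and macrophages of Mmp9 and Mmp12.

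Total counts per library were 45.0 to 51.8 M (1e6) in aged RCAM, 49.8 to 54.4 M in young RCAM, 27.1 to 43.2 M in aged capsules, 20.6 to 22.2 M in young capsules, 39.3 to 53.4 M in capsule macrophages and 31.8 to 49.9 M in kidney macrophages. Levels are counts per 1e6 of that total (CPM). The RCAM libraries carried macrophage transcripts at the level of the sorted cells: 10 macrophage markers summed to 38162 to 43108 CPM in aged RCAM and 39048 to 41675 CPM in young RCAM, against 4509 to 10682 CPM in aged capsules and 2159 to 4270 CPM in young capsules. The same markers reached 35276 to 39349 CPM for capsule macrophages and 24574 to 26708 CPM for kidney macrophages. Aged capsule replicate 2 stood apart with 7001 CPM of 8 adrenal cortex markers, and young capsule replicate 2 had 359 CPM. The other 4 capsule libraries had 109 to 155 CPM.

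Before any level can be read, 3 members need a limit. Mmp19, Timp1 and Timp3 were listed at exactly 0 in all 16 RCAM and macrophage libraries, although Timp3 reached 1182.1 CPM in capsule tissue. All exon bases of these 3 genes lie inside an annotated gene on the opposite strand: Timp1 inside Syn1, Timp3 inside Syn3, and Mmp19 inside the antisense gene Gm47093. The same was seen across the genome among protein-coding genes with at least 1 CPM in all 6 capsule tissue libraries. Of 321 such genes with all exon bases inside an opposite-strand gene, 269 (83.8%) were at 0 in all 16 other libraries, against 4 of 3977 (0.101%) with some bases inside and 2 of 8012 (0.025%) with none. Whether counting used strand is not given in the sources used here. The 0 values of Mmp19, Timp1 and Timp3 are therefore not read as levels, no fold change is given for them outside capsule tissue, and this limit was set after the values were seen. Of the other 7 members, Mmp12 has 4.63% of its exon bases inside an opposite-strand gene and the remaining 6 have none.

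**Figure D1:**
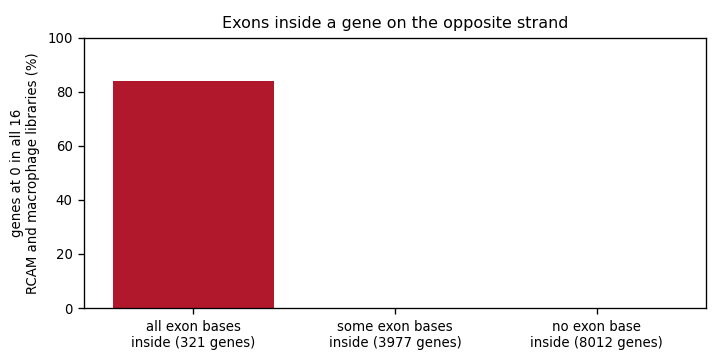
Share (%) of protein-coding genes at 0 in all 16 RCAM and macrophage libraries, by how much of their exon sequence lies inside a gene on the opposite strand, among genes with at least 1 CPM in all 6 capsule tissue libraries. The bar for genes wholly inside stands at 83.8%, and the other bars, at 0.101% and 0.025%, are too low to see.

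The members lie on 7 chromosomes of GRCm38 in the GENCODE M21 annotation, and Mmp3, Mmp12 and Mmp13 lie close together on chromosome 9. Mmp3 spans chr9:7445822-7455975, Mmp12 chr9:7344381-7369499 and Mmp13 chr9:7272514-7283331, all on the plus strand. Upstream sequences are shown for these members, which are those whose windows held the motif below. Mmp12 and Mmp13 were the members highest in kidney macrophages relative to capsule macrophages, and Mmp3 and Mmp12 were higher in aged RCAM. Mmp14 was also higher in kidney than in capsule macrophages and in aged than in young RCAM, but its window did not hold the motif. RefSeq start sites on GRCm38.p6 gave a window of 250 bases before the start for 7 of the 10 members, with 2 windows for Mmp12. Each was searched on both strands for TGACTCA, the consensus site of the AP-1 transcription factor, which is also read as TGAGTCA. The letters were found in 3 members, once each: 46 bases upstream of the start in Mmp3 (chr9:7445572-7445821), 44 in Mmp12 (chr9:7347124-7347373) and 35 in Mmp13 (chr9:7272264-7272513). The Mmp12 window with the motif lies inside the gene's annotated span, before an internal RefSeq start. The other Mmp12 window, chr9:7344147-7344396, at the start of that span, did not hold these letters, nor did the windows of Mmp14, Timp1, Timp2 and Timp3. Of 32851 mouse windows of this length 4.46% hold the motif, as do 5.16% of 27025 genes. A match is a description of letters and shows no binding. Each sequence is given 5′ to 3′ on the plus strand, with the motif in capitals.
Mmp3: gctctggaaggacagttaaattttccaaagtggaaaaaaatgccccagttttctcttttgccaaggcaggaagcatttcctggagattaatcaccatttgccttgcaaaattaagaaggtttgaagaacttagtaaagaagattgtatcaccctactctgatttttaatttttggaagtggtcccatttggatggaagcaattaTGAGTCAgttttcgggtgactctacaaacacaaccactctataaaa
Mmp12: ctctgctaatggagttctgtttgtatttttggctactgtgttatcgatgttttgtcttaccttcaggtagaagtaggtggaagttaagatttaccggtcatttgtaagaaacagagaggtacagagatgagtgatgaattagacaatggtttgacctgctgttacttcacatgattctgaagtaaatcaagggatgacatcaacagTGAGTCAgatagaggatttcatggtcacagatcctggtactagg
Mmp13: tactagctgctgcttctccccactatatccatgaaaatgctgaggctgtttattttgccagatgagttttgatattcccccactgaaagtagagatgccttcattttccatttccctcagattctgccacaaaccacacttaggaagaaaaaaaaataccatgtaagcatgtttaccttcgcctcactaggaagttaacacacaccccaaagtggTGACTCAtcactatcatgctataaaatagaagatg

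**Figure D2:**
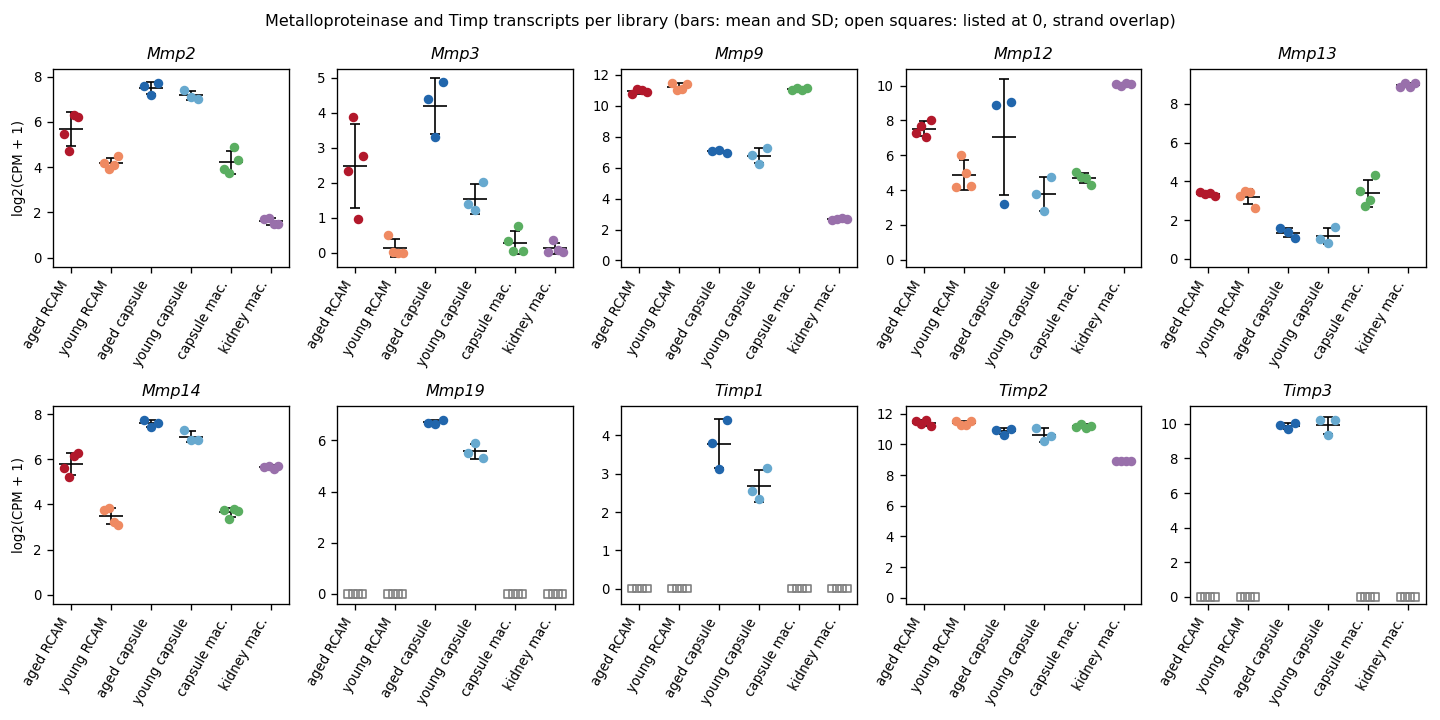
Level of each member in every library, as log2(CPM + 1), in the 6 groups (points: libraries; bars: mean and SD; open squares: listed at 0 with all exons inside an opposite-strand gene). Mmp9 and Timp2 are high in all RCAM and capsule macrophage libraries, and Mmp12 and Mmp13 are highest in kidney macrophages.

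Macrophages of the capsule and of the kidney differed in all 6 members that could be tested, 3 higher and 3 lower in capsule macrophages. Mmp9 and Timp2 were higher in the capsule cells, Mmp12 and Mmp13 were lower, and no library of 1 group reached the range of the other for any of the 6. In edgeR's quasi-likelihood test with Benjamini-Hochberg adjustment over 15701 genes, 27.3% of all genes were called higher and 28.2% lower at an adjusted p under 0.05, so a call in this comparison is common. The median log2 fold change of the 6 was 0.30, beside -0.03 for all genes tested.

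Mmp9, the gelatinase stored in large amounts by neutrophils and also made by macrophages, had 2097.1, 2261.1, 2073.6 and 2282.5 CPM in capsule macrophages, against 5.057, 5.542, 5.589 and 5.515 CPM in kidney macrophages. All capsule libraries were far above all kidney libraries. The difference was 464-fold, which is 8.86 ± 0.10 on the log2 scale (SE, n = 4 each, edgeR adjusted p = 7.13e-12). Summed neutrophil markers ranged over 94.3 to 157 CPM for the capsule cells and over 128 to 140 CPM for the kidney cells, with Ly6g at 0 in capsule macrophages and Mpo and Elane at 0 in kidney macrophages. Of the 2 markers tested, Retnlg was higher (43.4 CPM in capsule and 2.79 CPM in kidney macrophages) and Csf3r lower (75.3 CPM in capsule and 131 CPM in kidney macrophages). Of 10 macrophage markers, 10 were called higher in the capsule cells and 0 lower. Mast cell markers had 5 of 5 tested called higher, and dendritic cell markers 4 of 7 higher and 1 lower. T cell markers, with 1 of 4 tested called higher, summed to 34.6 to 43.0 CPM for the capsule cells. The kidney cells had 1.77 to 6.15 CPM, and Cd2 averaged 34.8 CPM in capsule and 0.896 CPM in kidney macrophages. Other lists ran lower, as given with Mmp14 below. The part of these lists in the Mmp9 result was not tested.

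Mmp2 was also higher, with 13.9, 12.42, 28.34 and 19 CPM in capsule macrophages, against 2.255, 2.365, 1.79 and 1.785 CPM in kidney macrophages. Its log2 fold change was 3.37 ± 0.28 (SE, n = 4 each, edgeR adjusted p = 3.88e-06). Fibroblast markers, 10 of 10 of which were called higher, ranged in sum over 634 to 933 CPM for the capsule cells and over 11.8 to 17.3 CPM for the kidney cells. Their part in the Mmp2 result was not tested.

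Mmp12, named for its activity on elastin, had 31.97, 26.38, 24.77 and 18.85 CPM in capsule macrophages, against 1088.1, 988.5, 1135.4 and 1094.6 CPM in kidney macrophages. It was 36.4-fold lower in capsule macrophages (log2 fold change -5.19 ± 0.16, SE, n = 4 each, edgeR adjusted p = 4.44e-09). Mmp13 had 10.34, 5.596, 7.145 and 18.74 CPM in capsule macrophages, against 472.3, 540.1, 473.8 and 533.4 CPM in kidney macrophages. Every capsule library was below every kidney library for both genes. The log2 fold change of Mmp13 was -5.38 ± 0.35 (SE, n = 4 each, edgeR adjusted p = 7.54e-07).

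Mmp14 was lower as well, with 12.53, 9.294, 12.85 and 11.9 CPM in capsule macrophages, against 49.58, 51.41, 46.22 and 51.18 CPM in kidney macrophages. Its log2 fold change was -1.88 ± 0.12 (SE, n = 4 each, edgeR adjusted p = 7.6e-07). Mmp14 thus went against Mmp2, whose precursor it activates, and against the fibroblast markers. Several marker sums ran the same way without overlap. Proximal tubule markers had sums of 156 to 366 CPM for the capsule cells and of 2162 to 3497 CPM for the kidney cells, with 10 of 10 called lower. Monocyte markers had sums of 494 to 702 CPM for the capsule cells and of 1163 to 1270 CPM for the kidney cells, with 1 of 5 called higher and 1 lower. Endothelial markers had 13.0 to 33.5 CPM for the capsule cells and 39.2 to 53.9 CPM for the kidney cells, with 0 of 8 called higher and 3 lower by edgeR, at an unadjusted p under 0.05, by DESeq2 and by limma-voom alike. The adipocyte marker sum was lower as well, with Pck1 at 13.3 CPM in capsule and 259 CPM in kidney macrophages. Of 7 tested adipocyte markers, however, 6 were called higher and 1 lower. The adrenal cortex marker sum was lower too, with 0 of 3 tested called higher and 1 lower. Nearly all of that sum was Scarb1, at 110 CPM in capsule and 155 CPM in kidney macrophages. Cyp11b1, Cyp21a1 and Mc2r were at 0 in both groups. The part of these lists in the lower Mmp12, Mmp13 and Mmp14 was not tested.

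The inhibitor Timp2 had 2198.5, 2617.9, 2159.2 and 2309.3 CPM in capsule macrophages, against 480.3, 488.1, 489.6 and 471.4 CPM in kidney macrophages. It was 5.57-fold higher (log2 fold change 2.48 ± 0.08, SE, n = 4 each, edgeR adjusted p = 5.85e-09). Macrophage markers and fibroblast markers each had 10 of 10 called higher in the capsule cells, while proximal tubule markers had 10 of 10 lower. The part of these lists in the Timp2 result was not tested. Mmp3 did not pass the filter on low counts: it had 14, 1, 32 and 1 counts in capsule macrophages and 1, 12, 2 and 1 counts in kidney macrophages. All 84 values obtained for these 6 members under other settings kept their direction and their side of the threshold.

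Other genes of the pathway were read from lists chosen with earlier results of these data known. Of 17 further MMP and TIMP genes 7 were tested, and 4 were higher in capsule macrophages, led by Mmp23 (log2 fold change 4.68 ± 0.41) and the membrane-type Mmp15 (5.66 ± 0.86). Mmp28 (1.92 ± 0.33) and Mmp11 (2.07 ± 0.58) followed, each error being an SE over 4 libraries a group. Levels of Mmp15 were low, averaging 1.16 CPM in capsule and 0.0243 CPM in kidney macrophages. Mmp11 averaged 2.32 CPM in capsule and 0.642 CPM in kidney macrophages. Of 19 tested genes that activate or restrain these proteases, 10 were higher and 2 lower. Among them were Reck, a membrane-anchored inhibitor (3.13 ± 0.32), Pcolce, an enhancer of procollagen processing (3.47 ± 0.17), Furin, a convertase of protease precursors (0.78 ± 0.07), and Bsg, an inducer of these enzymes (0.74 ± 0.07). Of 16 related ADAM and ADAMTS proteases 8 were higher and 5 lower, with Adam8 at 3.37 ± 0.27 and Adamts2, a procollagen peptidase, at 6.65 ± 0.49, while Adamts10 was at -2.21 ± 0.14. Adam15 was higher too, but 89.1% of its exon bases lie inside an opposite-strand gene. Of 18 matrix substrates 14 were higher, including Fn1 (6.62 ± 0.22) and Dcn (6.98 ± 0.24). Dcn, Col1a1, Col1a2 and Col3a1 of this list are also fibroblast markers, so that count is not independent of the fibroblast markers. Over all genes tested, 27.3% were called higher and 28.2% lower. The part of fibroblast RNA in these list counts was not tested.

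**Figure D3:**
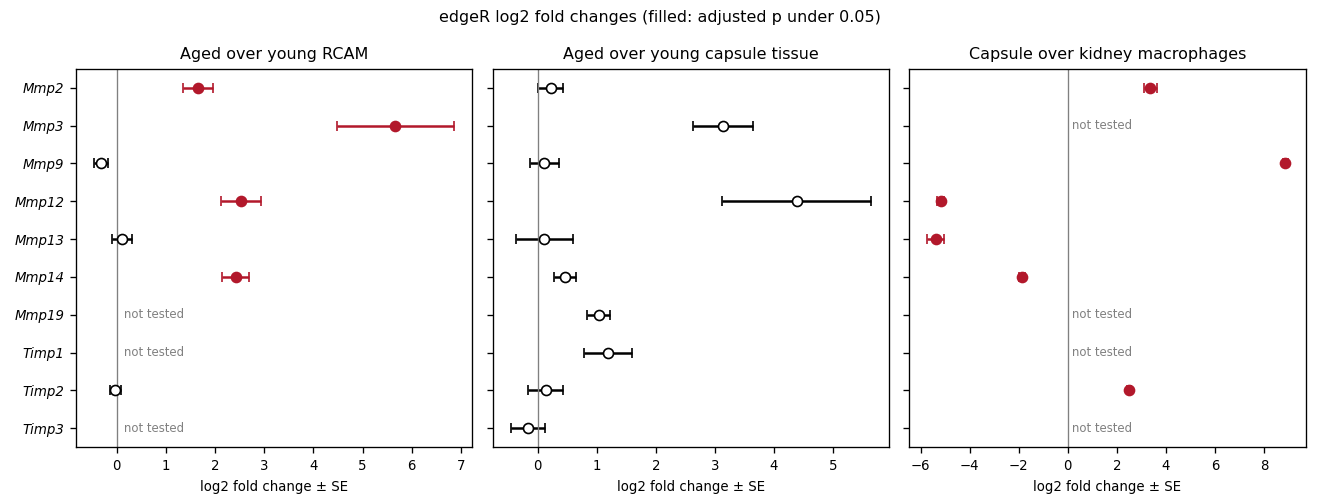
Log2 fold change ± SE from edgeR for each member in aged over young RCAM, aged over young capsule tissue, and capsule over kidney macrophages (filled: adjusted p under 0.05; each panel has its own axis range). Mmp2, Mmp3, Mmp12 and Mmp14 are filled in RCAM, none is filled in capsule tissue (fit without replicate pairing), and all 6 tested members are filled in macrophages.

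The proteases Mmp14, Mmp12, Mmp2 and Mmp3 were higher in aged than in young RCAM, while Mmp9, Mmp13 and Timp2 did not pass the test. Of the 7 members tested 4 were called higher and 0 lower by edgeR, against 3.43% of 15182 genes higher and 1.38% lower. At an unadjusted p under 0.05, 4 were higher and 1 lower, 4 were called higher by DESeq2 and 3 by limma-voom, with 0 lower in both. The shares of all genes are edgeR's, and DESeq2 called more of all genes too, in the numbers given in the last section. No share of all genes is given at an unadjusted p. The median log2 fold change of the 7 was 1.65, beside -0.01 for all genes tested. In bulk RNA, fewer cells of a type and less RNA per cell cannot be told apart.

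Mmp14 had 48.17, 35.68, 69.07 and 75.98 CPM in aged RCAM, against 12.5, 13.38, 8.33 and 7.645 CPM in young RCAM. The groups did not overlap. It was 5.35-fold higher, which is 2.42 ± 0.27 on the log2 scale (SE, n = 4 each, edgeR adjusted p = 0.00164). Leaving out any 1 library kept the adjusted p at 0.0077 or less.

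Mmp12 had 155.1, 201.1, 133.7 and 263.2 CPM in aged RCAM, against 17.13, 64.25, 30.72 and 17.51 CPM in young RCAM. All aged libraries were above all young ones, and young replicate 2 was the highest of its group. The log2 fold change was 2.52 ± 0.41 (SE, n = 4 each, edgeR adjusted p = 0.00869), and no single library removed the call (highest adjusted p 0.0321).

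Mmp2 had 43.38, 25.35, 79.12 and 73.59 CPM in aged RCAM, against 17.25, 14.12, 16.23 and 21.52 CPM in young RCAM. The groups did not overlap, but aged replicate 2 lay close to the highest young library. The log2 fold change was 1.65 ± 0.31 (SE, n = 4 each, edgeR adjusted p = 0.0164), and the call was lost without young replicate 2 (0.0511) or young replicate 3 (0.0503).

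Mmp3 had 190, 702, 42 and 263 counts in aged RCAM, which is 4.063, 13.56, 0.9342 and 5.728 CPM, against 23, 1, 0 and 0 counts in young RCAM. The aged libraries differed widely among themselves, and 1 young library held nearly all of its group's reads. For the young libraries at 0, a limit of 3 counts corresponds to 0.05866 and 0.05896 CPM, which covers counting error only. The log2 fold change was 5.67 ± 1.20 (SE, n = 4 each, edgeR adjusted p = 0.0262). Without young replicate 1 it was 9.39 with an adjusted p of 0.00931. The call was lost when young replicate 2 (0.0684), 3 (0.061) or 4 (0.0658) was left out, or aged replicate 2 (0.068) or 4 (0.0591), and in limma-voom (0.129).

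The members that did not pass stayed close to 0 on the log2 scale. Mmp9 had 1705.8, 2192.6, 2105.0 and 1918.4 CPM in aged RCAM and 2827.0, 2024.9, 2160.0 and 2674.4 CPM in young RCAM, with overlapping groups and a difference of -0.32 ± 0.14 on the log2 scale (edgeR adjusted p = 0.267). Timp2 averaged 2704.2 ± 325.5 CPM in aged RCAM and 2711.5 ± 275.3 CPM in young RCAM (SD, n = 4 each; log2 fold change -0.03 ± 0.11, edgeR adjusted p = 0.934). Mmp13 averaged 9.261 ± 0.5184 CPM in aged RCAM and 8.537 ± 2.345 CPM in young RCAM (SD, n = 4 each; log2 fold change 0.10 ± 0.20, edgeR adjusted p = 0.883).

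Fibroblast markers were higher in the same libraries. The 10 fibroblast markers summed to 1302.4, 950.3, 2339.2 and 2696.6 CPM in aged RCAM, against 652.1, 552.9, 761.7 and 750.7 CPM in young RCAM, a 2.68-fold difference of means, with 6 of 10 called higher and none at 0. Macrophage markers overlapped between the ages, with 0 of 10 called by edgeR, DESeq2 or limma-voom and 1 higher at an unadjusted p under 0.05. Per 1000 CPM of fibroblast markers, Mmp14 was 28.18 to 37.55 CPM in aged RCAM and 10.18 to 24.2 CPM in young RCAM, without overlap. Mmp2 was 26.68 to 33.82 CPM in aged RCAM and 21.31 to 28.67 CPM in young RCAM on that scale, and Mmp12 was 57.16 to 211.6 CPM in aged RCAM and 23.32 to 116.2 CPM in young RCAM, both with overlap. Mmp3 was 0.3994 to 14.27 CPM in aged RCAM and 0 to 0.6481 CPM in young RCAM, also with overlap.

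Without the aged replicates highest in fibroblast markers, 3 and 4, the log2 fold change of Mmp14 was 1.98 (edgeR adjusted p = 0.014). Mmp2 then had 0.97 (0.103), Mmp12 2.45 (0.0538) and Mmp3 6.22 (0.0565), so 1 of the 7 members was called. The aged libraries kept, at 1302.4 and 950.3 CPM of fibroblast markers, were still above every young library, so this set does not remove the fibroblast difference. These scales and this reduced set were chosen after the values were seen, and the part of fibroblast RNA in the Mmp2, Mmp3, Mmp12 and Mmp14 results was not tested. B and plasma cell markers also rose, to 1303 to 1998 CPM in aged RCAM, against 988 to 1165 CPM in young RCAM, with 4 of 5 tested called higher (Ms4a1, wholly inside an opposite-strand gene, was listed at 0). Endothelial markers summed to 22.6 to 79.9 CPM in aged RCAM and 9.45 to 15.1 CPM in young RCAM. Smooth muscle and pericyte markers summed to 7.96 to 18.9 CPM in aged RCAM and 3.85 to 5.99 CPM in young RCAM, with a median log2 fold change of 2.42. Of 7 tested, edgeR called 1 higher, DESeq2 5 and limma-voom 3. The part of these lists was not tested.

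**Figure D4:**
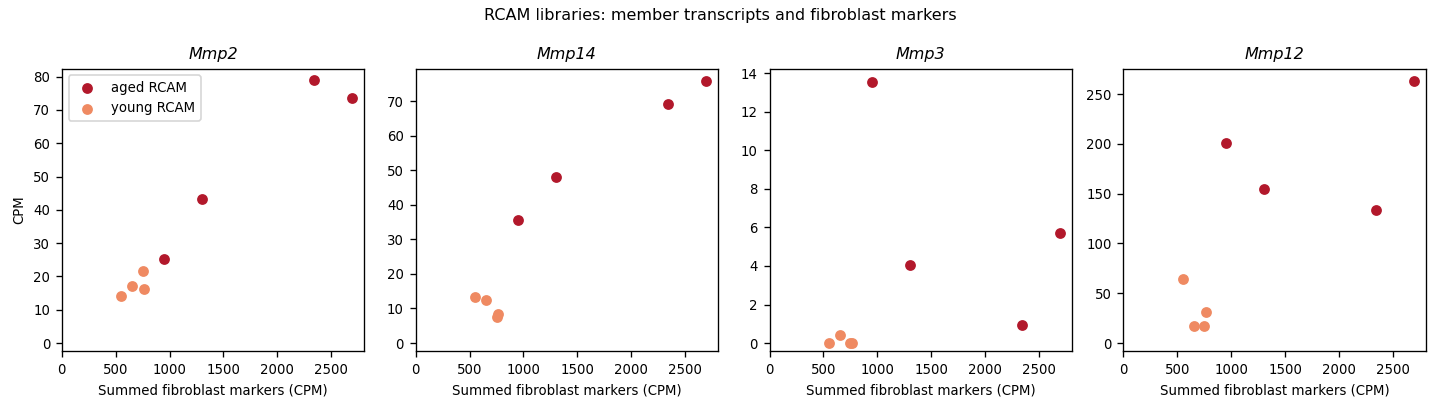
CPM of Mmp2, Mmp14, Mmp3 and Mmp12 in the 8 RCAM libraries against the summed CPM of 10 fibroblast markers (points: libraries, aged and young by colour). Aged libraries lie at 950.3 to 2696.6 CPM of fibroblast markers and young libraries at 552.9 to 761.7 CPM, and the libraries with most Mmp2 and Mmp14 are those with most fibroblast markers. Mmp3 is highest, at 13.56 CPM, in the aged library with the least fibroblast marker signal (950.3 CPM).

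Among the other pathway genes in RCAM, Mmp11 was the 1 of 9 further MMP and TIMP genes tested that was called higher in aged RCAM (log2 fold change 1.79 ± 0.38, SE, n = 4 each, edgeR adjusted p = 0.0256), and limma-voom called 0 of them. Of 19 activators and regulators 5 were higher and 0 lower. Among them were Serpine2, an inhibitor of serine proteases (2.08 ± 0.25), Plat, the tissue plasminogen activator (2.68 ± 0.43), and the thrombospondin Thbs2 (2.87 ± 0.40). Of 16 ADAM and ADAMTS genes 3 were higher, including the aggrecanase Adamts5 (1.67 ± 0.32) and Adamts2 (1.57 ± 0.32), and Adam15 was lower (-0.39 ± 0.10). Of 18 matrix substrates 8 were higher, led by Dcn (1.92 ± 0.24) and Bgn (2.56 ± 0.32), and Nid2 was lower (-0.50 ± 0.11). Dcn and 3 collagen genes of the substrate list are also fibroblast markers, so that count is not independent of the fibroblast markers. Over all genes tested, edgeR called 3.43% higher and 1.38% lower. Regulators called higher numbered 11 at an unadjusted p under 0.05, 9 in DESeq2 and 6 in limma-voom, with 0 lower in each. Matrix substrates called higher numbered 15 at an unadjusted p under 0.05, 11 in DESeq2 and 5 in limma-voom, with 1 lower in each. DESeq2 called more of all genes than edgeR, and no share of all genes is given at an unadjusted p. The part of fibroblast RNA in these list counts was not tested.

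In whole capsule tissue none of the 10 members was called between aged and young mice by edgeR in a fit without replicate pairing. At an unadjusted p under 0.05, 5 were higher and 0 lower, while 3 were higher and 0 lower by DESeq2 and 0 were called in either direction by limma-voom. In that fit edgeR's calls were rare over all genes, with 0.153% of 16350 genes higher and 0.0856% lower. DESeq2 called more of all genes than edgeR, in the numbers given in the last section, and no share of all genes is given at an unadjusted p. The median log2 fold change of the members was 0.34, beside 0.03 for all genes tested. The ranges of Mmp3, Mmp14 and Mmp19 did not overlap between the ages. Pairing the libraries by replicate number changed edgeR's calls, as given in the last section. Mmp3, Mmp19 and Timp1 were then called higher, and many more of all genes were called in each direction.

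Mmp3 had 20.03, 8.887 and 28.16 CPM in aged capsules, against 1.603, 1.316 and 3.065 CPM in young capsules. Every aged library was above every young one, and the log2 fold change was 3.14 ± 0.51 (SE, n = 3 each, edgeR adjusted p = 0.0591). It passed in DESeq2 (5.86e-08), without young replicate 2 (0.0495) and without aged replicate 2 (0.0221). Mmp12 had 480.1, 8.084 and 522.4 CPM in aged capsules, against 12.82, 5.967 and 25.6 CPM in young capsules. Aged replicate 2, the library with adrenal transcripts, lay within the young range, and the log2 fold change was 4.39 ± 1.26 (SE, n = 3 each, edgeR adjusted p = 0.111). Without that library Mmp12 passed, at 4.96 with an adjusted p of 0.0186.

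Mmp19, a secreted metalloproteinase measurable here in tissue alone, had 102.7, 99.79 and 110.9 CPM in aged capsules, against 45.03, 58.07 and 38.49 CPM in young capsules. The aged libraries were close to each other and all above the young ones, with a log2 fold change of 1.03 ± 0.20 (SE, n = 3 each, edgeR adjusted p = 0.0727). Without young replicate 2 it passed, at 1.20 with an adjusted p of 0.0357. Timp1, an inhibitor induced in inflamed and fibrotic tissue, had 12.95, 7.79 and 20.34 CPM in aged capsules, against 4.809, 4.041 and 7.797 CPM in young capsules. The lowest aged library lay just below the highest young one, and its log2 fold change was 1.19 ± 0.41 (SE, n = 3 each, edgeR adjusted p = 0.148). Mmp14 had 212.1, 168.6 and 194.4 CPM in aged capsules, against 155.1, 114.7 and 115.4 CPM in young capsules, with a log2 fold change of 0.46 ± 0.19 (SE, n = 3 each, edgeR adjusted p = 0.201).

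The other 5 members overlapped between the ages and had log2 fold changes of 0.22 ± 0.21 (Mmp2), 0.11 ± 0.25 (Mmp9), 0.11 ± 0.48 (Mmp13), 0.13 ± 0.29 (Timp2) and -0.17 ± 0.29 (Timp3). Without replicate 2 of both ages, the libraries highest in adrenal markers, Mmp3 (3.26, edgeR adjusted p = 0.0272), Mmp12 (4.59, 0.016) and Mmp19 (1.26, 0.0343) passed. Macrophage markers summed to 6060, 4509 and 10682 CPM in aged capsules, against 3246, 2159 and 4270 CPM in young capsules. B and plasma cell markers summed to 3390 to 5299 CPM in aged capsules and 163 to 213 CPM in young capsules, and proximal tubule markers to 1321 to 6344 CPM in aged capsules and 6512 to 25655 CPM in young capsules. The part of these lists in the member values was not tested.

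**Figure D5:**
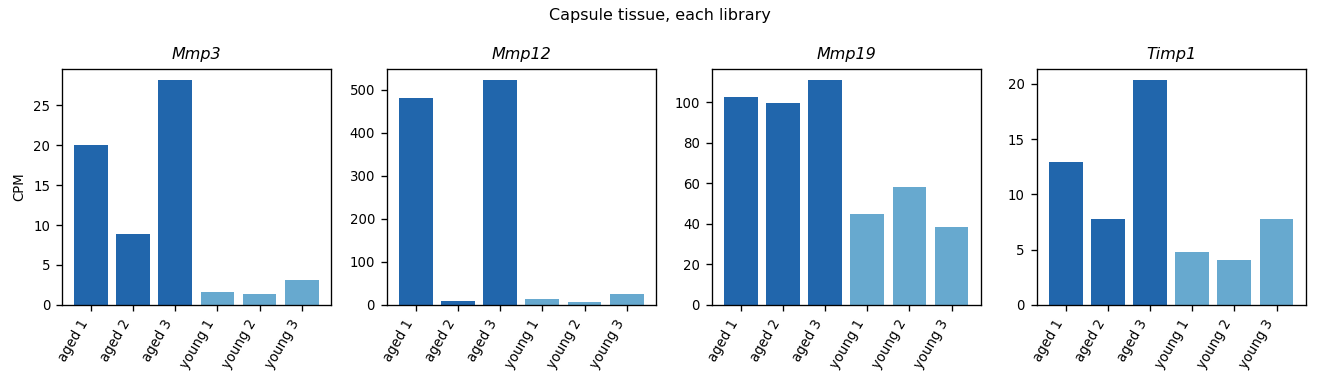
CPM of Mmp3, Mmp12, Mmp19 and Timp1 in each aged and young capsule tissue library (bars start at 0; 1 bar per library). Mmp12 is at 480.1 and 522.4 CPM in aged replicates 1 and 3 and at 8.084 CPM in aged replicate 2.

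None of the other pathway lists had a gene called by edgeR or limma-voom in capsule tissue in the fits without replicate pairing. At an unadjusted p under 0.05, 1 further MMP or TIMP gene was higher and 0 lower, 2 regulators were higher and 1 lower, 6 ADAM and ADAMTS genes were higher and 0 lower, and 0 matrix substrates were higher and 2 lower. DESeq2 called 0 further MMP or TIMP genes, 1 regulator higher and 1 lower, 2 ADAM and ADAMTS genes higher, and 1 matrix substrate lower. Over all genes tested, edgeR called 0.153% higher and 0.0856% lower. DESeq2 called more of all genes, as given in the last section, and no share of all genes is given at an unadjusted p.

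Whether the age effect differed between RCAM and capsule tissue was tested by the difference of the log2 fold changes. Mmp14 was the 1 member of 7 called, and its age effect was larger in RCAM (2.42) than in tissue (0.46). The fitted difference was 1.99 ± 0.36 (SE, edgeR adjusted p = 0.0161), beside 3.12% of 18856 genes with a higher and 1.93% with a lower age effect in RCAM. In the same test 6 of 10 fibroblast markers had a larger age effect in RCAM (median difference 1.76; 10 in DESeq2 and 6 in limma-voom). For Mmp14, leaving out any 1 library gave 1.83 to 2.16, with adjusted p of 0.0083 to 0.044. Without aged RCAM replicates 3 and 4 the difference was 1.55 and was not called (0.0584). DESeq2, which also called more of all genes than edgeR, called 2 members. It added Mmp2, whose difference was 1.47 ± 0.43 (edgeR adjusted p = 0.0624, DESeq2 adjusted p = 0.0167). The difference was 2.56 ± 1.43 for Mmp3, -1.83 ± 1.24 for Mmp12, -0.39 ± 0.29 for Mmp9, 0.02 ± 0.47 for Mmp13 and -0.12 ± 0.26 for Timp2.

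Set against whole capsule tissue of the same age, RCAM held more Mmp9, Mmp13 and Timp2 and less Mmp2 and Mmp14 at both ages. Of the 7 readable members, 3 were higher and 3 lower in young RCAM than in young capsules, where 35.2% of 17491 genes were higher and 40.6% lower. In aged RCAM against aged capsules 3 were higher and 2 lower, beside 32.2% and 38.5% of 17595 genes. Library kit, run and the strand overlap cannot be told apart from the cells here, since the labels name a regular-input and a low-input kit without saying which library had which.

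Mmp9 was higher by 4.24 ± 0.17 on the log2 scale in aged RCAM than in aged capsules (SE, n = 4 and 3, edgeR adjusted p = 1.24e-06) and by 4.70 ± 0.31 in young RCAM than in young capsules (edgeR adjusted p = 4.07e-06). Mmp13 was higher by 2.86 ± 0.26 in the aged pair and 2.92 ± 0.44 in the young pair, and Timp2 by 0.86 ± 0.16 in the aged pair and 1.04 ± 0.23 in the young pair. Mmp2 had a log2 fold change of -1.40 ± 0.35 in the aged pair and -2.80 ± 0.17 in the young pair, and Mmp14 of -1.42 ± 0.24 in the aged pair and -3.35 ± 0.24 in the young pair. Mmp3 had -1.31 ± 0.73 in the aged pair (edgeR adjusted p = 0.14) and -3.82 ± 1.32 in the young pair (edgeR adjusted p = 0.027). The young value was -7.38 without young RCAM replicate 1, and the call was lost without young capsule replicate 1 (0.0564) or 3 (0.0887) or young RCAM replicate 2 (0.0553). Mmp12 was not called in the aged pair (-0.50 ± 0.93, edgeR adjusted p = 0.645) or the young pair (1.38 ± 0.61, edgeR adjusted p = 0.0665). Without aged capsule replicate 2 it was called in the aged pair (-1.07, 0.00754), and in the young pair it was called without young capsule replicate 3 (2.06, 0.0239), young RCAM replicate 1 (1.64, 0.0434) or young RCAM replicate 4 (1.64, 0.0422).

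Ordered by mean level over the 6 groups, Timp2 was highest in young RCAM (2711.5 CPM), aged RCAM (2704.2 CPM) and capsule macrophages (2321.2 CPM), whose ranges overlapped from each to the next. Aged capsules (1867.9 CPM) and young capsules (1591.1 CPM) overlapped below them, and kidney macrophages (482.4 CPM) were lowest without overlap. Mmp9 had the same leading groups, young RCAM (2421.6 CPM), capsule macrophages (2178.6 CPM) and aged RCAM (1980.5 CPM), again overlapping, then capsule tissue at 131.1 CPM in aged and 112.1 CPM in young libraries. Mmp12 and Mmp13 shared their place at the top, with kidney macrophages above every other group without overlap. Below them, Mmp12 had 336.9 CPM in aged capsules and 188.2 CPM in aged RCAM, whose ranges overlapped.

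For Mmp2 and Mmp14 whole tissue led, with Mmp2 at 182.3 CPM in aged and 144.7 CPM in young capsules, overlapping, and Mmp14 at 191.7 CPM in aged and 128.4 CPM in young capsules, not overlapping. Mmp14 in aged RCAM (57.23 CPM) overlapped with kidney macrophages (49.6 CPM), and capsule macrophages (11.64 CPM) with young RCAM (10.46 CPM). Mmp3 stayed below 30 CPM in every library and was led by aged capsules (19.03 CPM) and aged RCAM (6.07 CPM), which overlapped. Timp3 in capsule tissue was 957.6 ± 113 CPM in aged and 998.2 ± 304.6 CPM in young libraries (SD, n = 3 each).

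Members can be set against each other per kilobase of exon, where the length counts every base of any annotated exon of the gene. On that scale Timp2 and Mmp9 led in RCAM, at 694 and 560 CPM per kb in aged RCAM and 696 and 684 CPM per kb in young RCAM. Capsule macrophages had the same leaders, with 616 CPM per kb of Mmp9 and 596 CPM per kb of Timp2. In kidney macrophages Mmp13 led with 189 CPM per kb, ahead of Mmp12 with 149 and Timp2 with 124 CPM per kb, and Mmp9 was at 1.53 CPM per kb. The order of Mmp13 and Mmp12 depends on the length used, which was 2673 bases for Mmp13 and 7237 for Mmp12. Without that scaling, Mmp12 (1076.6 CPM) was above Mmp13 (504.9 CPM) in kidney macrophages. In capsule tissue Timp2 led with 479 CPM per kb in aged and 408 in young libraries, followed by Timp3 with 118 CPM per kb in aged and 123 in young libraries.

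Across the 22 libraries, the genes whose log2(CPM + 1) ran most closely with each member were found among 13597 genes by Pearson's r, given as a description because the 22 points share groups and depth. Mmp9 ran with Fcrls (r = 0.994), Gfra2 and Ednrb, and Timp2 with Gas6 (0.993), Pmp22 and Kdelc2. Mmp2 ran with Srpx (0.990), Islr and Cpxm1, Mmp14 with Phldb2 (0.957), Apbb2 and Enpp5, and Mmp13 with Hs3st3a1 (0.980), Klra2 and Cdk6. Mmp12 had its closest gene, Nek6, at 0.917, ahead of Rgs1 and Golm1. Mmp3 ran with Mzb1 (0.950), Gm30211 and Pou2af1. Among the members themselves, Mmp9 and Timp2 had r = 0.937 and Mmp2 and Mmp13 had r = -0.900. For Mmp19 and Timp3 the ranking is set by the 0 values and is not given, and Timp1 was below the level minimum.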

How the data were processed

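Bulk RNA from 22 libraries was measured. The authors deposited whole-number counts of reads per gene, not normalized, and RPKM values, which were not used here. Per the submitters' processing notes the genome build was GRCm38; no source used here names an aligner or counter, or says whether strand was used. Per the labels' protocols, 30 M single-end reads of 50 bp were planned, from a stranded mRNA kit (100 ng total RNA) or a low-input kit (2 ng), without saying which library had which. Of 52636 gene identifiers 52489 were found in GENCODE M21, which gave symbols and exons, and 147 were not.

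The test was the 2-sided quasi-likelihood F test of edgeR 4.0.16 (R 4.3.3; TMM scaling, default expression filter, Benjamini-Hochberg adjustment over all genes tested, threshold 0.05). Only the compared groups entered a fit. The SE of a log2 fold change was its size divided by the square root of F, and the procedure was tested on simulated data. DESeq2 1.42.0, limma 3.58.1 (voom), other scalings, no filter, a replicate block and leaving out libraries were also tried, up to 22 settings per comparison. No pair of libraries of 1 group agreed within sampling noise. The members and lists were chosen with earlier results of these data known. All 10 members were named. From other lists, up to 4 called genes of smallest p per comparison could be named, and for each member the 3 genes of highest r.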

Additional observations from a re-analysis of the deposited data

Results flagged for a closer look

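Mmp3 in young RCAM had 1 library far from the others: replicate 1 was at 0.4226 CPM, which is 23 counts, and the others had 0 or 1 count. In kidney macrophages, replicate 2 stood apart in the same way, at 0.2783 CPM of Mmp3 or 12 counts, beside 1 or 2 counts in the others.

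Mmp9 in kidney macrophages had a low library, replicate 1 at 5.057 CPM, with the others at 5.515 to 5.589 CPM. Of 28 member and group pairs of 4 libraries examined for such gaps these 3 stood out, and chance alone marks about 1 in 20.

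The age effect on Mmp14 differed between RCAM and capsule tissue, by 1.99 on the log2 scale (edgeR adjusted p = 0.0161). In the same test 6 of 10 fibroblast markers had a larger age effect in RCAM. Within RCAM 6 of 10 were called higher in the aged libraries, while in aged capsule tissue edgeR called 0 of 10, with 3 lower at an unadjusted p under 0.05, DESeq2 called 2 lower and limma-voom 0. Their part in the difference was not tested.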

How the results depend on the processing

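Mmp3 had at most 32 counts in any capsule or kidney macrophage library, 3 members cannot be read outside tissue, and 10 of 60 levels moved by over 1 SD when totals were TMM-scaled over all libraries. Of the single-member values under other settings, 617 kept direction and side of the threshold, 25 newly passed, 16 no longer passed and 22 changed sign; no changed sign was of a value called in the fit reported above. Causes of the changes were not tested.

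In aged against young capsule tissue, DESeq2 called 3 members and 754 genes higher and 1122 lower. Without the filter on low counts these were 3, 403 and 692, and without the replicates 2 they were 3, 176 and 311. With TMM free of immunoglobulin, mitochondrial and haemoglobin genes 22 genes were lower, and limma-voom called 14 higher. Leaving out 1 library gave 0 to 2 members higher and 0 lower, with 0 to 93 genes higher and 0 to 324 lower. In aged against young RCAM, DESeq2 called 937 genes higher and 504 lower, and without aged replicates 3 and 4 (chosen after seeing the data) 1 member and 172 genes were higher and 51 lower. Leaving out 1 library gave 2 to 4 members and 340 to 497 genes higher, and 0 members and 98 to 153 genes lower.

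For the difference of the age effects, DESeq2 called 2 members and 1312 genes higher and 1043 lower, and without aged RCAM replicates 3 and 4 these were 0, 84 and 17. Leaving out 1 library gave 1 to 2 members and 112 to 987 genes higher, and 0 members and 114 to 607 genes lower. Restricted to genes with no exon base inside an opposite-strand gene (chosen after seeing the data, and with fewer genes tested), young RCAM against tissue gave 4081 genes higher and 4334 lower, and aged RCAM against tissue 4089 lower. Leaving out 1 library gave 3 to 4 members and 5791 to 6060 genes higher and 2 to 3 members and 6650 to 7011 genes lower in the young pair. In the aged pair it gave 3 members and 5224 to 5591 genes higher and 2 to 3 members and 6406 to 6692 genes lower. In macrophages it gave 3 members and 3869 to 4238 genes higher and 3 members and 3876 to 4582 genes lower.

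Values that changed sign were as follows. Leaving out 1 library of capsule tissue, Mmp13 ranged over -0.17 to 0.67, Mmp9 over -0.12 to 0.42, Timp2 over -0.07 to 0.36 and Timp3 over -0.42 to 0.00. Leaving out both replicates 2 there, Mmp13 was -0.15 and Mmp9 -0.16. Leaving out 1 RCAM library, Timp2 ranged over -0.09 to 0.05 and Mmp13 over -0.08 to 0.20. Mmp12 in aged RCAM against tissue was 0.86 in limma-voom and ranged over -1.07 to 0.01 when 1 library was left out. The difference of the age effects on Mmp13 was -0.02 with RLE scaling, -0.03 in DESeq2, -0.05 in limma-voom and -0.51 to 0.17 when 1 library was left out.

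Titles number the replicates without saying what a number shares. In capsule tissue, deviations of same-numbered libraries correlated at 0.0986 to 0.353, and of others at -0.306 to 0.0382; the lowest falls just short of 0.1, so the numbers were not taken to pair samples, a choice made with the block fits already in view. With the replicate block, capsule tissue gave 3 members and 943 genes higher and 1253 lower: Mmp3 (3.09, edgeR adjusted p = 0.0013), Mmp19 (1.05, 0.013) and Timp1 (1.14, 0.0179). In RCAM, with correlations of -0.108 to -0.0261, the block gave 280 genes higher and 56 lower, and in aged RCAM against tissue Mmp12 was 0.01.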
